A study of Mus musculus with 6 samples.

Results

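The transcripts described here encode collagens, small leucine-rich and other proteoglycans, and the proteins that organise, cross-link or degrade the fibrous matrix of a sympathetic ganglion. They were chosen by gene symbol: every probe set, the group of short probes that reads 1 transcript on the array, whose annotation gave exactly 1 symbol and whose symbol was a collagen chain or one of a fixed set of other matrix genes. This gave 137 probe sets for 63 genes, of 45101 probe sets on the array. Of them, 57 probe sets for 35 genes had a mean log2 intensity of at least 4 over the 6 arrays and were tested, among 17550 tested probe sets in all. The tested genes were 18 of 42 collagen genes and 17 of 21 other matrix genes.

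RNA came from both stellate ganglia of single male C57/Bl6 mice, each hybridised to its own array. The animals had undergone transverse aortic constriction (TAC), a surgical narrowing of the aortic arch that loads the left ventricle with pressure, or a sham operation, and the tissue was taken after 8 weeks. There were 3 sham arrays and 3 TAC arrays, lettered A, B and C in their titles. The age of the animals is not given in the sources used here.

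Peripheral ganglia are wrapped in connective tissue. Collagens I, III and V form the banded fibrils of the capsule and of the septa between neurons, collagen VI makes beaded filaments around cells, and collagen IV forms the sheet of the basement membrane that lies outside satellite glia, Schwann cells and vessels. Small leucine-rich proteoglycans such as decorin, lumican and fibromodulin bind collagen fibrils and govern their thickness and spacing. Fibroblasts are the main source of fibrillar collagen in nerve and ganglion, with contributions from mural cells and glia.

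No matrix transcript differed between TAC and sham beyond the correction for multiple testing. With limma and Benjamini-Hochberg adjustment over all tested probe sets, 0 of the 35 genes passed an adjusted p of 0.05 (smallest adjusted p = 0.512), and so did 0 of 17550 probe sets, a percentage of 0. At an unadjusted p under 0.05 there were 7 of the 35 genes by limma, 5 lower and 2 higher after TAC. Among all 9955 tested genes, each represented like the members by its probe set of highest mean, 8.76% had such a p in either direction, 3.32% lower and 5.43% higher. The lower ones were Fmod, Smoc2, Col15a1, Col6a2 and Col1a1, and the higher ones were Smoc1 and Dcn. The count of 7 was 16 without TAC A, where 10.2% of all genes had such a p, and 3 without TAC B, where 6.76% had. It was 4 without sham A (8.68% of all genes), 4 without sham C (5.91%), 6 without sham B (7.03%) and 6 without TAC C (6.18%). Without both sham C and TAC B it was 3 (5.12%), and with no floor 16 of 63 (16.4%). Over the 57 tested probe sets the count was 10, 8 lower and 2 higher, against 9.08%, 3.05% and 6.03% of all probe sets. With 1 animal per array these p-values set a difference against the spread between the 3 animals of a group. That spread is moderated by limma with the other tested probe sets.

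The mean was lower after TAC for 26 of the 35 genes, and the median log2 difference was -0.21, against 0.02 over all tested genes, of which 45% had a lower mean. The groups did not overlap for 7 genes (17.9% of all genes), with TAC under sham in 5 and over it in 2. Over all tested genes TAC lay wholly under sham in 9.09% and wholly over it in 8.78%. In 8 of the 35 genes the mean was lower by 0.4 or more, a distance that 2.01% of all genes reached. Of the 57 probe sets, 39 had a lower mean, against 43.9% of all, and 12 had groups without overlap (17.9% of all), 10 lower (8.85%) and 2 higher (9.02%). The median was -0.12 without TAC C, -0.10 without TAC B and -0.32 without TAC A. A ganglion extract does not separate fewer cells of a type from less RNA per cell.

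**Figure D1:**
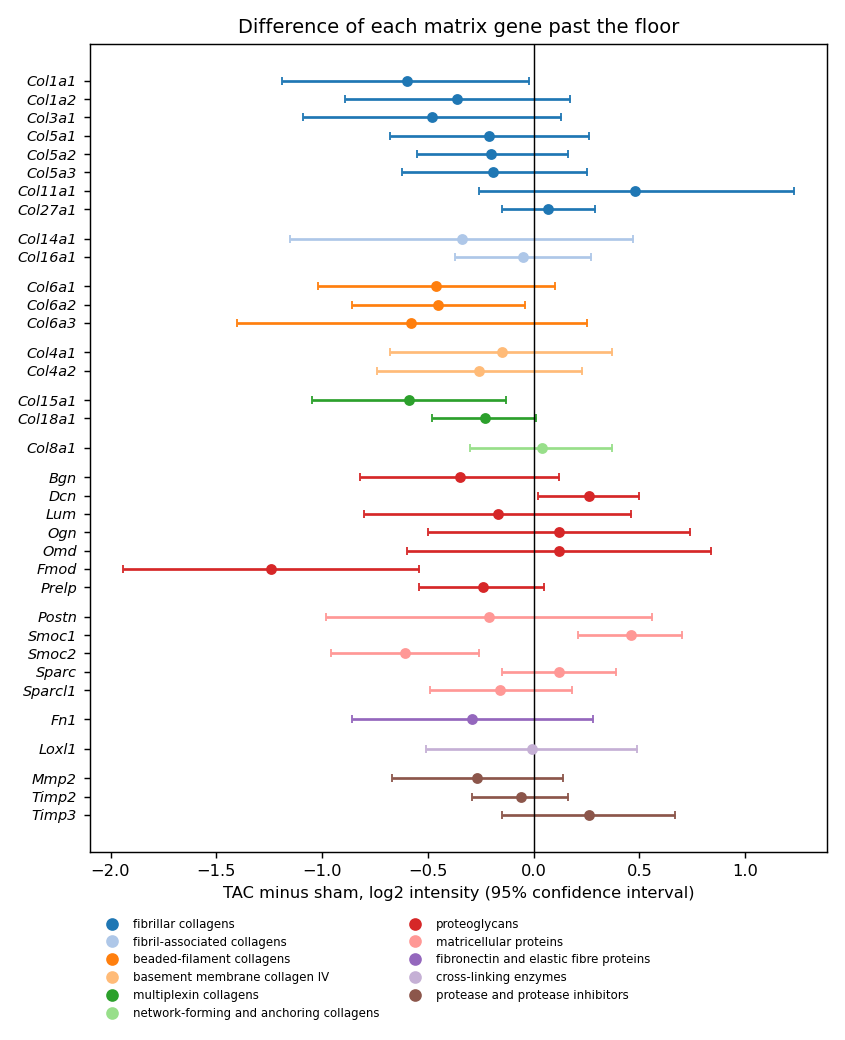
Difference between TAC and sham (x axis, log2 intensity) for each of the 35 matrix genes past the floor (y axis), coloured by role, with 95% confidence intervals from limma. The points run from -1.24 for Fmod to 0.48 for Col11a1, and most intervals include 0.

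Among the fibrillar collagens, 8 of 11 genes were past the floor, with a median log2 difference of -0.20, 6 lower and 2 higher. Col1a1, the alpha-1 chain of collagen I, measured 7.23, 7.44 and 7.48 in sham and 7.33, 6.37 and 6.64 in TAC, as log2 intensity, with the arrays of a group always given in the order of their letters. TAC A thus lay within the sham values while TAC B and TAC C lay below all of them. The Col1a1 mean went from 7.38 ± 0.14 in sham to 6.78 ± 0.49 in TAC (SD, n = 3), a difference of -0.60 (SE 0.24) or 1.52-fold, with limma adjusted p = 0.546. Col1a2, the alpha-2 chain of the same triple helix, measured 10.22, 10.44 and 10.21 in sham and 10.42, 9.59 and 9.77 in TAC, a difference of -0.36 (SE 0.22). Col3a1, which makes the thin fibrils of soft tissue, measured 11.07, 10.96 and 11.03 in sham and 11.15, 10.21 and 10.26 in TAC, a difference of -0.48 (SE 0.25). In both genes TAC A was at or above most sham arrays and the other TAC arrays were below all sham arrays.

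The stretches of 250 bases before the annotated start of Col1a2 and Col3a1 are shown with those of Col15a1 and Fmod. At the probe sets of highest mean, the first pair was low on TAC B and TAC C alone and the second pair on all TAC arrays. The second Col1a2 probe set, described below, had all TAC arrays below sham. The stretches come from RefSeq's promoter table of mouse build GRCm38.p6, and the choice was made with the values known. All are on the plus strand and read 5′ to 3′, and capitals mark matches on either strand to the CCAAT box (letters CCAAT), the TATA box (letters TATAAA) and the GC box (letters GGGCGG), which do not overlap each other here. The windows are chr6:4505368-4505617 for Col1a2, chr1:45311288-45311537 for Col3a1, chr4:47207762-47208011 for Col15a1 and chr1:134037004-134037253 for Fmod.
Col1a2: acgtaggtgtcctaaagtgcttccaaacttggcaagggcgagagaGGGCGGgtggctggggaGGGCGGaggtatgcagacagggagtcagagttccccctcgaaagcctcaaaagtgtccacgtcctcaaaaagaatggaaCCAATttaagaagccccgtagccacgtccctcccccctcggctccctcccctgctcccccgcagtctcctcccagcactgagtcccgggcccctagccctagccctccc
Col3a1: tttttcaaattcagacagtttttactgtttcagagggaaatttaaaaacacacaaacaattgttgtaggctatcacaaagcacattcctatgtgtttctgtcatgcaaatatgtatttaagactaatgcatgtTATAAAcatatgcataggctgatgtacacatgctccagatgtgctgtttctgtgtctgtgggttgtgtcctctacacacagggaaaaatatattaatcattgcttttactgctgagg
Col15a1: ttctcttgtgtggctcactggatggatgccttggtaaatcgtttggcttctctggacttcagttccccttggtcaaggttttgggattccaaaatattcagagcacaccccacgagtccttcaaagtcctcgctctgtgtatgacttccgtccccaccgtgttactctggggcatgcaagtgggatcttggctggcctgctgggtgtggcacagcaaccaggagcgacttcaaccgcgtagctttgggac
Fmod: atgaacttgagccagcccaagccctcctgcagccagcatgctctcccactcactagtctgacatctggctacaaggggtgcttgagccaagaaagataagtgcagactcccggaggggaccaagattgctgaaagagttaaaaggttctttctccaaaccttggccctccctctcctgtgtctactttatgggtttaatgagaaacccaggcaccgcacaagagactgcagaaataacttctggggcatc

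Col1a2 held CCAAT once, starting 109 bases before the start, and GGGCGG at 205 and 188 bases before it. Col3a1 held TATAAA at 117 bases before the start, and the Col15a1 and Fmod windows held none of the 3 patterns. Over all 32851 windows of this length in the table, 33.8% held CCAAT, 12.4% TATAAA and 32.7% GGGCGG, counting both strands. Of the 35 tested genes, 24 were in the table with 27 windows, of which 9 held CCAAT, 3 TATAAA and 14 GGGCGG. A match describes letters only.

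The chains of collagen V, which set the diameter of collagen I fibrils, differed less at their probe sets of highest mean. Col5a1 measured 6.29, 6.61 and 5.89 in sham and 6.22, 6.07 and 5.88 in TAC (difference -0.21, SE 0.19). Col5a2 measured 8.38, 8.41 and 8.40 in sham and 8.53, 8.01 and 8.06 in TAC (difference -0.20, SE 0.15). Col5a3 measured 8.73, 9.02 and 8.88 in sham and 8.98, 8.32 and 8.76 in TAC (difference -0.19, SE 0.18). In each of the 3 genes at least 1 TAC array lay inside or above the sham values.

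A pair of fibrillar chains had a higher mean. Col11a1, a chain of the minor fibrillar collagen best known from cartilage, measured 6.90, 5.81 and 6.32 in sham and 7.26, 6.64 and 6.58 in TAC, a difference of 0.48 (SE 0.31) with groups that overlapped and the largest positive value among the 35 genes. Its spread within the sham group was 0.54 (SD, n = 3), larger than the difference. Col27a1 measured 7.31, 7.26 and 7.31 in sham and 7.40, 7.22 and 7.47 in TAC, a difference of 0.07 (SE 0.09).

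The 3 measured chains of collagen VI all had a lower mean, with log2 differences of -0.45 to -0.58. Col6a2 measured 5.18, 4.95 and 5.22 in sham and 5.02, 4.49 and 4.49 in TAC, a difference of -0.45 (SE 0.17, limma adjusted p = 0.542). Its groups overlapped through TAC A alone. Col6a1 differed by -0.46 (SE 0.23) and Col6a3 by -0.58 (SE 0.34), and on TAC A these chains measured 6.42 and 7.13, against sham values of 6.18 to 6.70 and 6.91 to 7.07. Col6a3 was lowest on TAC B, at 5.67.

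Collagens XV and XVIII, which carry heparan or chondroitin sulfate chains and sit at basement membranes, were the only collagens whose groups did not overlap at the probe set of highest mean. They were 2 of 18 tested collagen genes, or 11.1%. Of all tested genes 17.9% had groups without overlap, and 9.09% had TAC wholly under sham. Col15a1 measured 7.39, 6.84 and 7.30 in sham and 6.72, 6.29 and 6.75 in TAC, with means of 7.18 ± 0.29 and 6.59 ± 0.26 (SD, n = 3). The Col15a1 difference was -0.59 (SE 0.19) or 1.51-fold, with limma adjusted p = 0.542. Col18a1, whose C-terminal fragment is endostatin, measured 4.63, 4.41 and 4.72 in sham and 4.40, 4.39 and 4.28 in TAC, a difference of -0.23 (SE 0.10). The gap between the groups of Col18a1 was narrow, since sham B at 4.41 lay just above TAC A at 4.40.

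Basement membrane collagen IV did not separate the groups. Col4a1 measured 9.64, 9.89 and 10.09 in sham and 9.83, 10.04 and 9.28 in TAC (difference -0.15, SE 0.22). Col4a2, its partner chain, differed by -0.26 (SE 0.20). Both were lowest on TAC C, and both lay within the sham values on TAC B. Among the remaining collagens, Col14a1 and Col16a1, which decorate the surface of fibrils, differed by -0.34 (SE 0.34) and -0.05 (SE 0.13), and Col8a1, a network-forming chain of vessel walls, by 0.04 (SE 0.14).

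The small leucine-rich proteoglycans went in both directions. Fibromodulin (Fmod), a keratan sulfate proteoglycan that controls fibril growth and cross-linking, measured 4.95, 5.16 and 4.69 in sham and 4.35, 3.32 and 3.41 in TAC. All TAC arrays were thus lower than all sham arrays, with a difference of -1.24 (SE 0.29, limma adjusted p = 0.512), the largest negative value among the 35 genes. TAC B and TAC C lay under the floor of 4, so Fmod passed the floor through its sham values. Its fold of 2.36 became 1.91 with the TAC mean set at the floor, and its difference was -0.67 with 16 added to each intensity before the logarithm. Its other 5 probe sets all lay under the floor, where differences ran from -0.34 to 0.05.

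Decorin (Dcn), which binds collagen I and sequesters growth factors, had the opposite direction. Dcn measured 12.07, 12.19 and 12.14 in sham and 12.46, 12.49 and 12.22 in TAC. All TAC arrays were above all sham arrays, though TAC C by a narrow margin. The Dcn difference was 0.26 (SE 0.10), with limma adjusted p = 0.544, and it kept an unadjusted p under 0.05 in 6 of 15 alternatives.

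Prelp, a basement membrane anchor, had groups that did not overlap at 6.36, 6.31 and 6.71 in sham and 6.15, 6.21 and 6.29 in TAC, a difference of -0.24 (SE 0.12). The gap between sham B and TAC C was small next to that difference. Biglycan (Bgn), a close relative of decorin, measured 8.34, 8.68 and 8.47 in sham and 8.38, 8.32 and 7.73 in TAC, a difference of -0.35 (SE 0.20). Lumican (Lum), which limits fibril thickness, measured 8.57, 8.43 and 8.33 in sham and 8.89, 7.90 and 8.02 in TAC, a difference of -0.17 (SE 0.26). TAC A held the highest Lum value of all 6 arrays and TAC B the lowest. Osteoglycin (Ogn) measured 8.60, 8.18 and 8.60 in sham and 8.71, 8.99 and 8.04 in TAC, and osteomodulin (Omd) 5.05, 4.21 and 5.35 in sham and 5.10, 5.16 and 4.71 in TAC. Their differences of 0.12 and 0.12 had standard errors of 0.26 and 0.30, and both groups overlapped.

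**Figure D2:**
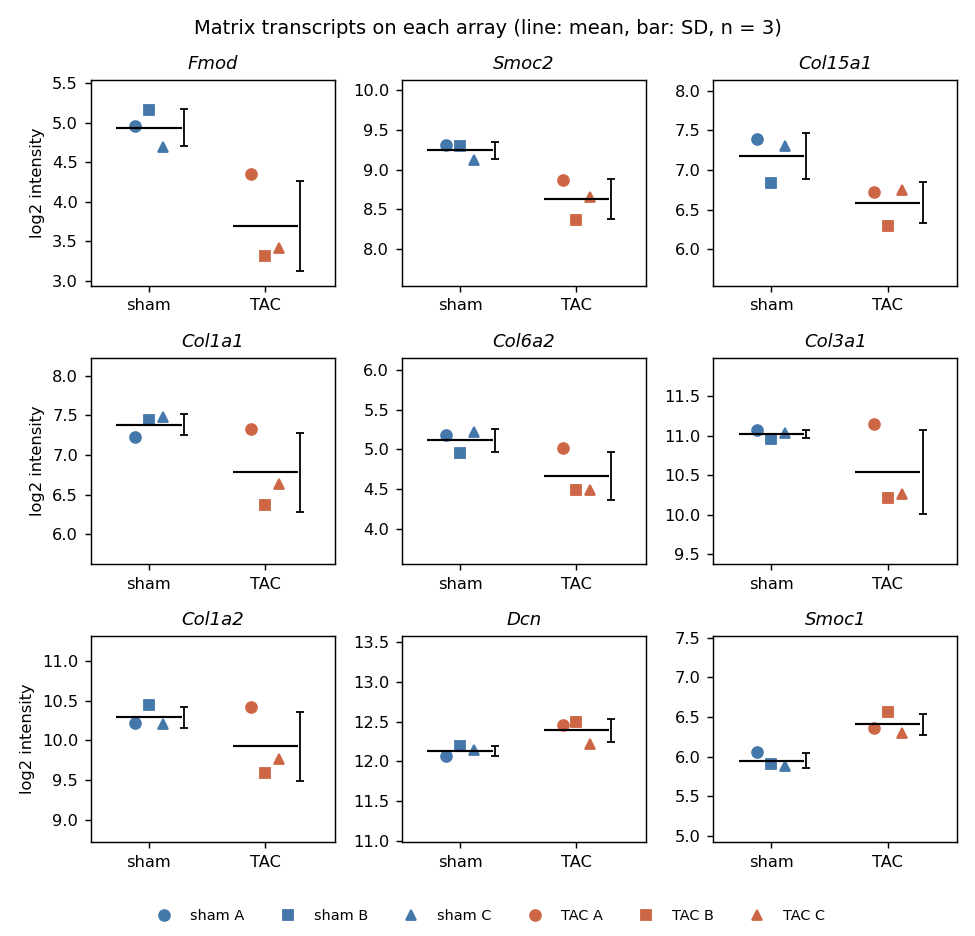
Log2 intensity (y axis, each panel spanning the same range) of 9 matrix genes on each array, with the group mean as a line and the SD as a bar (n = 3 per group). TAC A lies with the sham arrays for Col1a1, Col6a2, Col3a1 and Col1a2, while all TAC arrays lie on 1 side of the sham arrays for Fmod, Smoc2, Col15a1, Dcn and Smoc1.

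The closely related matricellular genes Smoc1 and Smoc2, secreted calcium-binding modulators of growth factor signalling, differed in opposite directions. Smoc2 measured 9.31, 9.30 and 9.12 in sham and 8.87, 8.36 and 8.66 in TAC, from a mean of 9.24 ± 0.11 to 8.63 ± 0.26 (SD, n = 3). The difference was -0.61 (SE 0.14) or 1.53-fold, with limma adjusted p = 0.512. Smoc1 measured 6.06, 5.91 and 5.88 in sham and 6.36, 6.56 and 6.30 in TAC, from 5.95 ± 0.10 to 6.41 ± 0.13 (SD, n = 3). The difference was 0.46 (SE 0.10) or 1.37-fold, with limma adjusted p = 0.512. In both genes all TAC arrays, TAC A included, lay on 1 side of the sham arrays. Both had an unadjusted p under 0.05 in 15 of 15 alternatives. The tally was 14 of 14 for Fmod, 11 of 15 for Col15a1, 7 of 15 for Col1a1 and 7 of 14 for Col6a2. Fmod and Col6a2 were too dim for the alternative with a floor of 6, which is left out of their tallies. The alternatives use the same arrays again, so a tally is no independent support.

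The other matricellular genes overlapped between groups. Periostin (Postn), which links collagen to other matrix proteins and is a marker of activated fibroblasts, measured 9.76, 9.82 and 9.59 in sham and 10.29, 9.07 and 9.19 in TAC. Its TAC arrays thus spanned the highest and the lowest value of all 6, and the difference of -0.21 had a standard error of 0.32. Sparc, a collagen-binding glycoprotein, measured 12.13, 12.30 and 12.37 in sham and 12.46, 12.49 and 12.22 in TAC (difference 0.12, SE 0.11). Sparcl1, its relative expressed by glia and vessels, measured 12.09, 11.82 and 12.03 in sham and 12.06, 11.60 and 11.80 in TAC (difference -0.16, SE 0.14). Fibronectin (Fn1) differed by -0.29 (SE 0.24) and was lowest on TAC C, at 6.43, against 7.02 to 7.40 in sham. The cross-linking enzyme Loxl1 differed by -0.01 (SE 0.21).

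The genes of matrix breakdown differed little. Mmp2, the gelatinase that cuts denatured collagen and collagen IV, measured 9.21, 9.34 and 9.19 in sham and 9.27, 8.62 and 9.05 in TAC (difference -0.27, SE 0.17). Timp2, an inhibitor that also takes part in activating the Mmp2 proenzyme, measured 12.26, 12.53 and 12.39 in sham and 12.37, 12.30 and 12.32 in TAC (difference -0.06, 95% confidence interval -0.29 to 0.16). Timp3, the inhibitor that is itself bound to matrix, measured 9.73, 9.73 and 9.77 in sham and 9.96, 10.36 and 9.68 in TAC (difference 0.26, SE 0.17). Timp3 was above all sham arrays on TAC A and TAC B and below them on TAC C.

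The TAC arrays divided over the collagen I, III and VI chains and their neighbours. On TAC B, 22 of the 35 genes lay below the sham range, or 62.9%, where 30.5% of all tested genes did. TAC C had 25 below, or 71.4%, against 24.4% of all genes. TAC A had 5 below, or 14.3%, against 24.1% of all genes, and 15 above, or 42.9%, against 26%. For 14 genes TAC B and TAC C lay below the sham range and TAC A did not, a pattern chosen after the values were seen that 5.73% of all tested genes showed. These were Bgn, Col1a1, Col1a2, Col3a1, Col5a2, Col6a1, Col6a2, Col6a3, Col14a1, Fn1, Lum, Mmp2, Postn and Sparcl1. The median distance from the sham mean over the 35 genes was 0.11 on TAC A, -0.26 on TAC B and -0.42 on TAC C. Without TAC A the difference was -0.79 for Col3a1, -0.88 for Col1a1, -0.61 for Col1a2 and -0.94 for Col6a3. In that fit 15 of the 35 genes were lower at an unadjusted p under 0.05 by limma, where 3.88% of all genes were. No gene of the table passed the adjusted threshold in it. Leaving out the array that stood apart for these genes widens their differences by construction, so the count of 15 is no support for a difference.

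**Figure D3:**
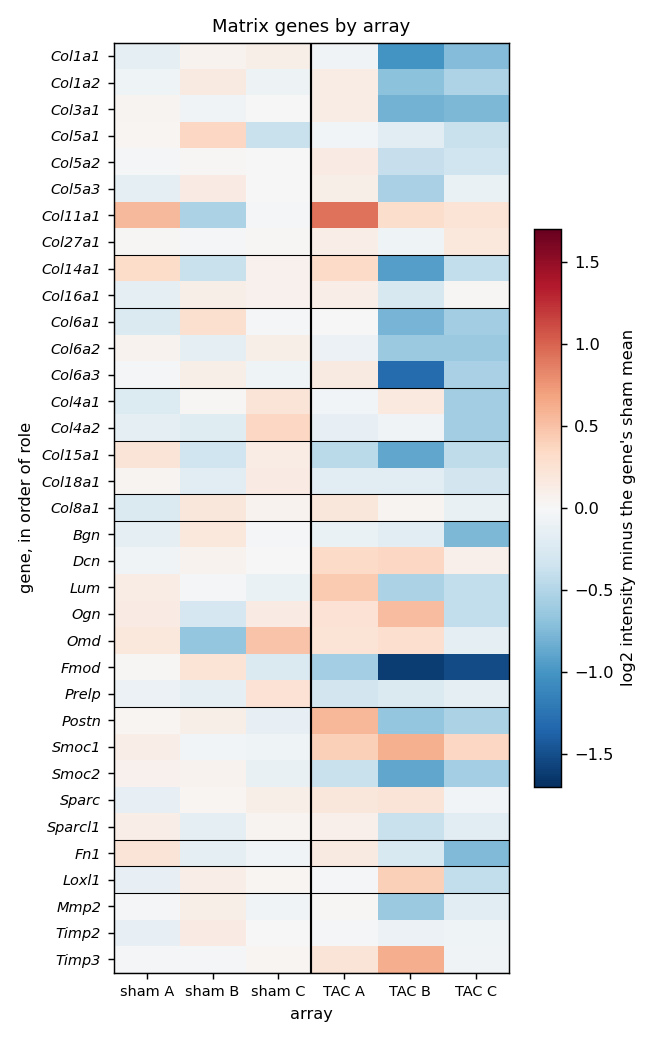
Log2 intensity minus the gene's sham mean (colour) for the 35 matrix genes (rows, in order of role, separated by lines) on each array (columns). The collagen I, III and VI rows are blue on TAC B and TAC C and near white on TAC A, and the Fmod and Smoc2 rows are blue on all TAC arrays.

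Several probe sets of a gene gave a check within the same arrays. Of 17 genes with more than 1 tested probe set, all probe sets pointed 1 way in 13, of which 10 were lower throughout. The second Smoc2 probe set measured 6.40, 6.37 and 6.37 in sham and 5.50, 5.75 and 5.80 in TAC, a difference of -0.70 (SE 0.10, limma adjusted p = 0.512). The second Col5a1 probe set, at 6.04, 6.31 and 6.15 in sham and 5.52, 5.16 and 5.11 in TAC, differed by -0.90 (SE 0.14, limma adjusted p = 0.512), against -0.21 for the first. The size of the Col5a1 difference therefore disagreed between its probe sets. For Col1a2 the second probe set measured 8.13, 8.37 and 8.09 in sham and 8.06, 7.75 and 7.56 in TAC, so that all TAC arrays were below sham there. The same held for the second probe sets of Col1a1 (-0.19) and Col14a1 (-0.46), where TAC A lay just under the lowest sham array, so these 3 genes did not show the division between TAC A and the other TAC arrays at both probe sets. Second probe sets gave -0.28 for Col3a1 and 0.54 for Col11a1. Directions differed between probe sets for Col5a2, Col8a1, Sparc and Timp2. At the second Col5a2 probe set TAC B and TAC C, at 6.88 and 7.08, lay within the sham values of 6.80 to 7.17, so the division was absent there too.

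**Figure D4:**
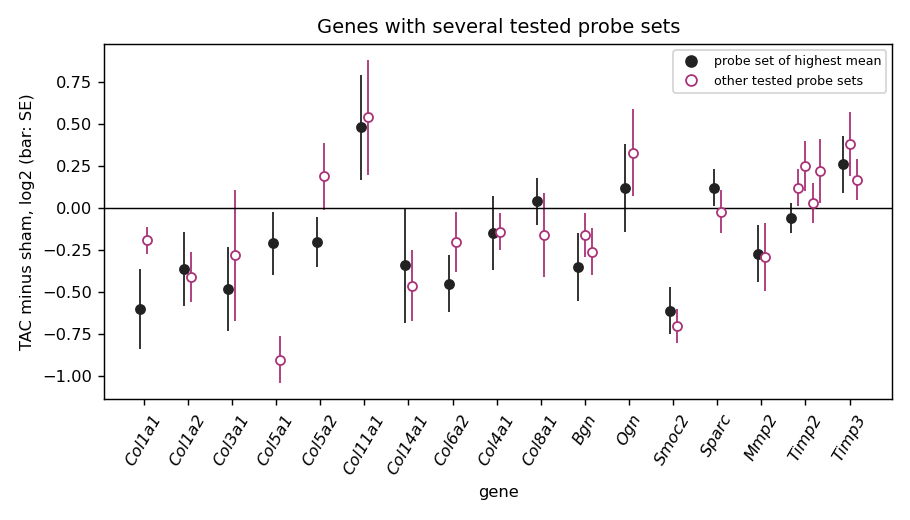
Difference between TAC and sham (y axis, log2 intensity, bars are limma's SE) for each tested probe set of the 17 genes with more than 1 (x axis), with the probe set of highest mean filled. Both Smoc2 probe sets lie below 0 at -0.61 and -0.70, and those of Col5a1 lie apart at -0.21 and -0.90.

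The 28 genes under the floor had mean log2 intensities of 2.16 to 3.89. Among them were versican (Vcan), elastin (Eln), lysyl oxidase (Lox), Timp1 and the cartilage collagen Col2a1, so no statement on their expression can be made from these values. Just inside the floor were Fmod at a mean of 4.31 and Col18a1 at 4.47, and just outside were Col4a4 at 3.89 and Col23a1 at 3.68. Of the 28, 23 had a lower mean after TAC, or 82.1%, where 87.1% of all genes under the floor did. For 21, or 75%, all TAC arrays were below all sham arrays, where this held for 71.4% of all genes under the floor, so these shares lay near the background.

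Genes that act with the collagens but are no members were followed through lists of 88 tested genes in all, with a median log2 difference of -0.04 and 53 lower means. At an unadjusted p under 0.05 there were 9 of 88 by limma, or 10.2%, close to the 8.76% of all genes, 7 lower and 2 higher, and 0 passed the adjusted threshold. Of 14 measured genes of collagen folding and processing, 11 had a lower mean. P4ha1, a catalytic subunit of the prolyl hydroxylase that stabilises the triple helix, was lower at 6.15 ± 0.29 against 6.72 ± 0.17 in sham (SD, n = 3), a difference of -0.57 (SE 0.17). Creb3l1, a transcription factor of collagen secretion, was higher by 0.44 (SE 0.11). The collagen chaperone Serpinh1 differed by -0.17 (SE 0.16).

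Of 9 laminin, nidogen and related basement membrane genes, 8 had a lower mean, with a median of -0.17, and the laminin chain Lamb2 differed by -0.57 (SE 0.17). Of 13 matrix receptors 10 had a lower mean, and Itga6, an integrin subunit that binds laminin, differed by -0.56 (SE 0.19) and Itgb5 by -0.31 (SE 0.12). Among other matricellular genes, Ccn1 differed by -0.50 (SE 0.16) and Tgfbi by -0.30 (SE 0.10), with a median of -0.04 over 13 genes. Among other proteoglycans, the neural proteoglycan brevican (Bcan) was higher by 0.34 (SE 0.09) and Cspg4, a marker of pericytes and glial precursors, differed by -0.42 (SE 0.16). The median over those 13 genes was 0.05. Medians were 0.12 over 7 elastic fibre genes, of which 1 had a lower mean, -0.04 over 8 proteases and inhibitors and -0.03 over 11 genes of transforming growth factor beta signalling. None of the genes in these 3 lists had an unadjusted p under 0.05 by limma.

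Markers of the cells that could carry these transcripts did not all move with them. All 9 measured markers of sympathetic neurons were past the floor on average, among them Dbh and Th at 13.55 or more on every array, so the defining markers of the labelled tissue were present. Of the 9, 4 were higher after TAC at an unadjusted p under 0.05 by limma, against 5.43% of all genes. In the same 4 the groups did not overlap, where 8.78% of all genes had TAC wholly over sham. The 4 were Npy (0.77), Slc18a2 (0.29), Th (0.24) and Chrna3 (0.23), as log2 differences. The summed linear intensity of the neuron markers ran from 76096 to 84066 in sham and from 90129 to 95435 in TAC, opposite to the matrix median. Most of that rise was 1 gene, Npy, at 13.61 to 13.87 in sham and 14.38 to 14.65 in TAC as log2 intensity. The median log2 difference over the 9 markers was 0.05, and 3 had a lower mean. The part of the neurons in the matrix values was not tested. Of 13 fibroblast markers, 6 were past the floor, 2 had a lower mean, and their median log2 difference was 0.02. The summed linear intensity of all 13 ran from 11496 to 11922 in sham and from 10760 to 15025 in TAC, and was highest on TAC B, where the collagen I, III and VI chains were low. It was lowest on TAC C, where these chains were low too. On TAC C 5 of the 6 fibroblast markers past the floor lay below their sham mean, with a median of -0.14. Most of that sum was 1 gene, Gsn, whose log2 intensity was 13.70 on TAC B and 13.20 to 13.34 on the other arrays. Pdgfra, the receptor that defines fibroblasts, measured 6.55 to 6.80 in sham and 6.96, 6.58 and 6.35 in TAC. Dpt, another marker, had a mean of 3.54, under the floor.

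Endothelial and mural markers were highest on TAC B, with medians of 0.89 and 0.70 above the sham mean, against 0.19 and 0.19 on TAC A and 0.11 and 0.21 on TAC C. These medians rest on the 4 of 9 endothelial and 5 of 9 mural genes past the floor. The endothelial genes Flt1, Cldn5 and Emcn were near the floor, with means of 4.20, 4.35 and 4.57, and Flt1 was not higher on TAC B, at 4.20. Satellite glia markers were lowest on TAC B, at a median of -0.47. White fat markers were high on sham C and TAC B, with medians of 1.22 and 0.64. Skeletal muscle markers had medians of 0.78, -2.65 and 1.88 in sham and -0.07, -2.39 and -2.61 in TAC, so that TAC A lay above TAC B and TAC C, as it did for the collagens, while sham B lay as low as they did. The summed intensity of the muscle list was 809 to 2876 in sham and 1122 to 1415 in TAC, and that of white fat 3496 to 12499 and 3075 to 9597. Most of the muscle sum on sham B and on the TAC arrays was 1 gene, Myl1, at 9.46 on sham B and 9.96 to 10.09 in TAC. Its mean was higher after TAC by 0.31. The other muscle genes past the floor, 5 in number, had lower means, with differences of -0.49 to -2.73. Cnmd, the 1 marker of cartilage and bone past the floor among 8 with a probe set, measured 8.74, 8.33 and 8.39 in sham and 8.46, 7.56 and 8.00 in TAC. It was thus below the sham range on TAC B and TAC C and not on TAC A, like the 14 matrix genes. Both red blood cell genes past the floor had a lower mean, Slc4a1 by -0.82 (SE 0.33), with TAC wholly under sham, and Alas2 by -0.97 (SE 0.64). The part of these tissues in the matrix values was not tested. Without sham C and TAC B, a setting chosen after seeing the data, Fmod, Smoc2 and Smoc1 kept an unadjusted p under 0.05 by limma. Their differences were -1.17, -0.54 and 0.35, and 5.12% of all genes had such a p there. Col15a1, Col1a1, Col6a2 and Dcn did not keep it, at differences of -0.38, -0.34, -0.31 and 0.21.

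**Figure D5:**
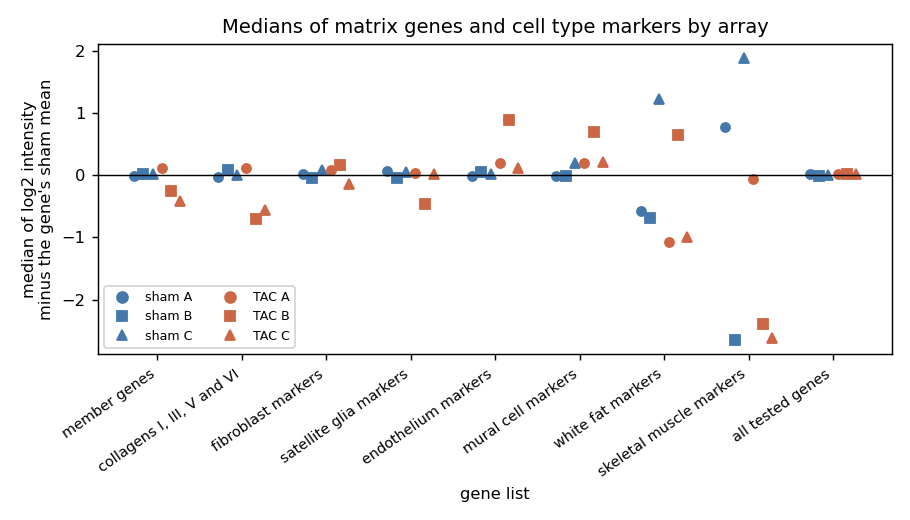
Median over a gene list of log2 intensity minus the gene's sham mean (y axis), for the matrix genes, for collagens I, III, V and VI, for 6 lists of cell type markers and for all tested genes (x axis), 1 point per array. The collagens lie at -0.70 on TAC B and -0.56 on TAC C and at 0.11 on TAC A, while the fibroblast markers lie between -0.14 and 0.17 on all arrays.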

How the data were processed

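The deposited values are linear intensity per probe set; the authors used GCRMA, according to the submitters' processing notes, a method that removes background from probe sequence and quantile-normalizes the arrays. Its version and options: not given in the sources used here. GCRMA compresses values near background, and on these arrays dim probe sets were mostly lower in TAC. Values were log2-transformed with no pseudocount, and probe sets under a mean of 4 over the 6 arrays were left out. TAC and sham were compared with limma 3.58.1 (R 4.3.3; lmFit and eBayes, two-sided), with Benjamini-Hochberg adjustment over all 17550 tested probe sets, and standard errors are the moderated ones. The fit was tested on simulated data. With 3 arrays against 3 an exact permutation test cannot give a p under 0.1, so precision is limited by how few arrays there are. Each gene stood for its probe set of highest mean. Symbols came from GEO's platform annotation. Fbn1 and Loxl2 had no probe set with exactly 1 symbol.

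Arrays correlated at 0.98 to 0.994, TAC B least on average at 0.984. The members and lists were chosen with earlier results of these data known. Values on every array are given for genes whose groups did not overlap or with an unadjusted p under 0.05, for the 10 of highest mean, and for fibrillar collagens and small leucine-rich proteoglycans. Figures were drawn with matplotlib 3.10.9. Alternatives covered the floor, a pseudocount of 16, renormalization, variance model, array weights, the title letter as a block, the mean of probe sets and each array left out.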

Additional observations from a re-analysis of the deposited data

How the results depend on the processing

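Leaving out sham C and TAC B was chosen after seeing the data, and the cause of the changes was not tested unless stated. The count of matrix genes at an unadjusted p under 0.05 was 7, 16 with no floor, where 63 genes enter and 16.4% of all genes have such a p, 3 without sham C and TAC B, and 3 to 16 with 1 array left out. Called probe sets were 0, except for 1 without TAC B and 1 without TAC C, so 0 to 1 over the arrays left out. The median of -0.21 was -0.32 to -0.10 with 1 array left out and -0.07 with no floor. With the title letter as a replicate block the count was 6 and the median -0.21. Same-lettered arrays deviated from their group means with correlations of 0.0841, -0.00308 and -0.166. With 3 arrays in a group these values cannot exclude that a letter pairs animals, which the titles do not state. Directions turned in 9 of 35 genes, all with small differences, and in none of the other 26. With array weights this held for Col16a1 (0.0013), Col8a1 (-0.0065), Ogn (-0.17) and Omd (-0.17), with quantile normalization for Col8a1 (-0.03), with the mean of all probe sets for Col8a1 (-0.06) and Timp2 (0.11), with the pseudocount for Loxl1 (0.0025), and without sham C and TAC B for Col16a1 (0.10) and Ogn (-0.02). Leaving out single arrays gave -0.13 to 0.07 for Col16a1, -0.32 to 0.07 for Col4a1, -0.08 to 0.13 for Col8a1, -0.22 to 0.20 for Loxl1, -0.48 to 0.01 for Lum, -0.09 to 0.39 for Ogn, -0.21 to 0.36 for Omd, -0.60 to 0.01 for Postn and -0.13 to 0.007 for Timp2.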
